A study of Homo sapiens with 6 samples.

Results

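The genes described here are 44 integrin and focal adhesion genes, of 63241 gene identifiers in the count tables. They comprise 18 integrin subunits and 26 adaptors, kinases and actin linkers, and were found by symbol through their Ensembl identifiers. Expression was measured by RNA sequencing in MDA-MB-231, a mesenchymal triple-negative human breast cancer cell line, here unmodified. One group of 3 libraries came from cells given 5 μM NCD (nitidine chloride, a plant alkaloid) for 24 h, and the other group of 3 came from cells given the vehicle, 0.1% DMSO, for the same time. The comparison asks which of these transcripts differed after exposure to NCD. The cell line field names MDA-MB-231 for all 6 libraries, although the descriptions attached to NCD replicates 2 and 3 number the line differently. The sources used here do not say that the replicates were separate cultures, so the p-values measure the spread between these libraries, which may be technical. In RNA from whole cultures, fewer cells with a transcript and less of it per cell cannot be told apart.

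Integrins are paired membrane receptors, each made of an α and a β subunit, that hold a cell to the extracellular matrix. The α subunit largely sets the ligand (collagens, laminins, or proteins that carry an Arg-Gly-Asp motif, such as fibronectin and vitronectin). Inside the cell, talins and kindlins bind the β tail, focal adhesion kinase and SRC phosphorylate docking proteins, and vinculin, α-actinins, filamin and tensins connect the adhesion to actin filaments, and MDA-MB-231 cells depend on this machinery to spread and invade.

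The libraries held 18223594 to 19410833 counts with DMSO and 18232169 to 21629653 with NCD, so that the 3 counts taken as the floor of detection correspond to 0.131 to 0.181 CPM (counts relative to library size, scaled by TMM, edgeR's trimmed mean of M-values). Of 15295 genes tested by edgeR's quasi-likelihood test, 31.0% were called, that is, passed a Benjamini-Hochberg adjusted p below 0.05 with an absolute log2 fold change above 1. By direction, 13.5% were called higher and 17.5% lower with NCD. DMSO replicate 2 and NCD replicate 3 stood apart most within their groups, with a chi-square per degree of freedom against replicate 1 of 16.86 and 15.85. The markers of the line were present (VIM, CD44, KRT8, KRT18, AXL, CAV1 and MSN together at 7000 to 7370 CPM with DMSO and 4740 to 5220 with NCD), while of the markers listed as low or absent, ESR1, PGR and CDH1 had at most 7 counts in any library. The others on that list were detected, EPCAM at 2.52 to 4.20 CPM and ERBB2 at 35.2 to 38.4 CPM with DMSO and 58.3 to 62.6 CPM with NCD. Summed over their lists, leukocyte markers reached at most 0.362 CPM, and endothelial markers at most 1.39 CPM. Fibroblast markers summed to 2.38 to 3.78 CPM with DMSO and 12.8 to 14.8 CPM with NCD, nearly all from COL1A1, while DCN, LUM and PDGFRA had at most 3 counts, and the part of these markers in the results was not tested.

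The adhesion genes fell more often than they rose. Of the 44 genes, 39 passed the filter on low counts and were tested, and 18 of these (46.2%) were called lower with NCD, 2 (5.13%) were called higher and 19 were not called. Their median log2 fold change was -0.87, against 0.04 over all tested genes. The 3 libraries of each group did not overlap in 34 of the 39 genes, with 28 lower and 6 higher with NCD, where 35.3% and 37.2% of all tested genes were separated in these directions. Regardless of fold, 26 had an adjusted p below 0.05 in the lower direction and 5 in the higher direction, with 69.3% of all tested genes below 0.05. Without DMSO replicate 2 the calls were 2 higher and 17 lower, and without NCD replicate 3 they were 2 higher and 19 lower. Of the genes called higher, NEDD9 passed the filter on low counts only through its NCD libraries.

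**Figure D1:**
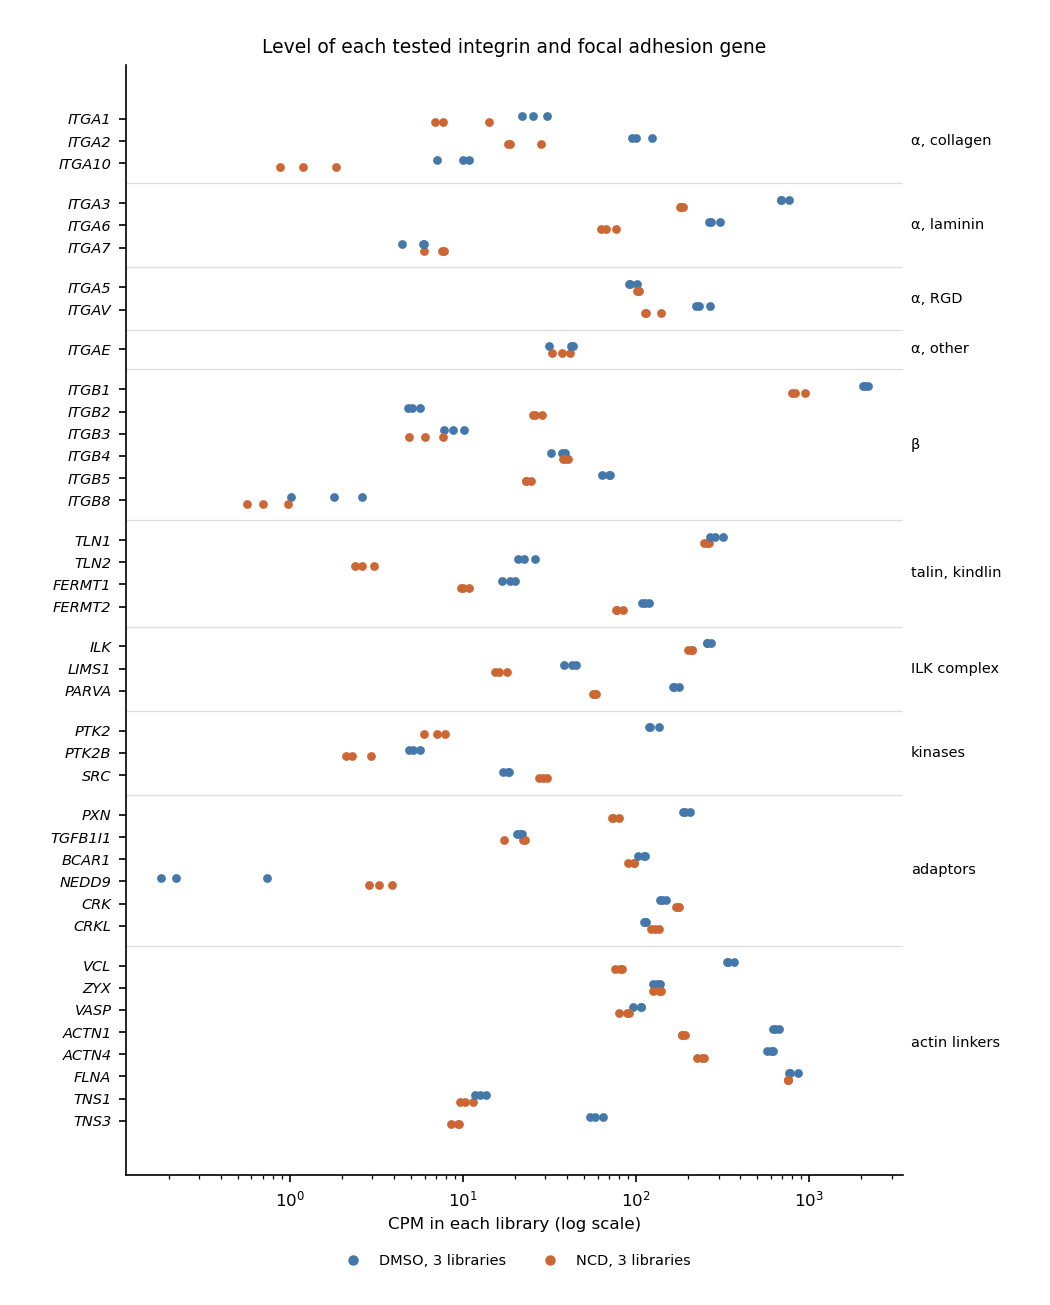
Level in CPM (log scale) of the 39 tested genes in each of the 3 DMSO (blue) and 3 NCD (orange) libraries, grouped by role; each point is 1 library. The PTK2 points lie at 119 to 136 CPM with DMSO and 5.95 to 7.88 CPM with NCD, while those of ZYX and ITGA5 lie nearly on top of each other.

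The collagen-binding α subunits fell as a group, with 3 of 3 tested called lower. ITGA2, the α subunit of the main epithelial collagen receptor (ENSG00000164171, chromosome 5, 52989326 to 53094779, plus strand, GRCh38), was at 94.6, 124 and 100 CPM with DMSO and at 18.6, 18.3 and 28.3 CPM with NCD. Its log2 fold change was -2.29 ± 0.18 (SE, adjusted p = 4.05e-06, from edgeR as for all adjusted p-values here). ITGA1, the collagen receptor subunit encoded next to it, stood at 22, 30.7 and 25.3 CPM with DMSO and at 6.86, 7.71 and 14.1 CPM with NCD. The groups did not overlap for either gene, and NCD replicate 3 was the least reduced library for both. For ITGA1 the log2 fold change was -1.44 ± 0.25 (adjusted p = 0.000775). ITGA1 holds the gene PELO on its own strand, with 372% of its counts, and how reads in the shared span were divided is not known. ITGA10, which pairs with ITGB1 in cartilage-type collagen receptors, was counted at 7.11, 10.8 and 9.98 CPM with DMSO and at 0.874, 1.19 and 1.86 CPM with NCD. This was a log2 fold change of -2.82 ± 0.27 (adjusted p = 1.55e-05), with every NCD library below every DMSO library.

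Among the laminin-binding α subunits, ITGA3 and ITGA6 fell and ITGA7 did not. ITGA3 (ENSG00000005884, chromosome 17, 50055968 to 50090481, plus strand), whose protein binds laminin in basement membranes, was measured at 692, 769 and 690 CPM with DMSO and at 187, 183 and 179 CPM with NCD. ITGA6, which forms the hemidesmosomal laminin receptor with ITGB4, was measured at 270, 306 and 265 CPM with DMSO and at 67.2, 62.6 and 77.0 CPM with NCD. Levels with NCD were far below those with DMSO in all 3 libraries for both genes, with DMSO-to-NCD ratios of 3.92 and 4.06. The log2 fold changes were -1.97 ± 0.07 for ITGA3 (adjusted p = 3.48e-08) and -2.02 ± 0.09 for ITGA6 (adjusted p = 1.64e-07). ITGA7, the muscle laminin receptor subunit, lay between 4.46 and 5.97 CPM with DMSO and between 5.99 and 7.79 CPM with NCD (log2 fold change 0.38 ± 0.17, adjusted p = 0.0664). Protein-coding genes on the opposite strand overlap ITGA7, of which BLOC1S1 had 453% of its counts.

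The α subunits that recognise the Arg-Gly-Asp motif were not called. ITGAV, which pairs with several β subunits as a vitronectin receptor, was at 222, 269 and 230 CPM with DMSO and at 113, 114 and 139 CPM with NCD. Its log2 fold change was -0.98 ± 0.10 (adjusted p = 2.95e-05), just inside the fold threshold, and it was called lower without DMSO replicate 1 (-1.06), without DMSO replicate 3 (-1.04) or without NCD replicate 3 (-1.10). ITGA5, the α subunit of the classical fibronectin receptor, had 90.9, 101 and 92.0 CPM with DMSO and 104, 103 and 101 CPM with NCD. Its groups overlapped in DMSO replicate 2, and its log2 fold change was 0.11 ± 0.06 (95% interval -0.01 to 0.24, adjusted p = 0.128). ITGAE, known as an E-cadherin receptor subunit of T cells, had a log2 fold change of -0.06 ± 0.13 (adjusted p = 0.683) with overlapping groups, and the opposite-strand gene HASPIN inside it had 103% of its counts.

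Because subunits of a library share its depth and scaling, their relative make-up was also compared, as the share of each α subunit in the sum of all α subunits in counts per kb of exon. ITGA3 made up 40.9%, 40.0% and 40.5% of this sum with DMSO and 28.8%, 28.2% and 25.6% with NCD. The share of ITGA5 was 6.96%, 6.81% and 6.99% with DMSO and 20.7%, 20.6% and 18.7% with NCD. Thus the fibronectin receptor subunit took a larger part of the α transcripts with NCD and the laminin receptor subunit a smaller part, with no overlap between the groups for either. In the same direction as ITGA3, mean shares went from 23.7% ± 0.37 (SD, n = 3) to 15.5% ± 1.04 for ITGA6 and from 7.41% ± 0.555 to 4.03% ± 0.875 for ITGA2. In the direction of ITGA5, they went from 16.2% ± 0.525 to 21.9% ± 1.70 for ITGAV and from 3.28% ± 0.757 to 8.30% ± 1.27 for ITGAE. None of these was called higher, with log2 fold changes of 0.11 for ITGA5, -0.98 for ITGAV and -0.06 for ITGAE. The shares in a library are tied to each other, since a smaller share for some means a larger share for others. Subunits were tested if their mean share was at least 5% in either group, which ITGAE reached only with NCD and ITGA2 only with DMSO. The shifts of ITGAE and ITGA2 therefore rest partly on that choice. For each of these 6 α subunits and for ITGB1, the 7 subunits tested, a two-sided exact permutation test gave p = 0.1 (adjusted p = 0.1), which is the smallest value that 3 against 3 libraries allow. The summed level of the α subunits was 181 ± 13.4 CPM per kb with DMSO and 67.8 ± 2.88 CPM per kb with NCD (ratio 0.375, exact permutation p = 0.1). By ligand class the ratio of NCD to DMSO was 0.213 for the collagen-binding, 0.259 for the laminin-binding and 0.680 for the Arg-Gly-Asp-binding subunits.

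**Figure D2:**
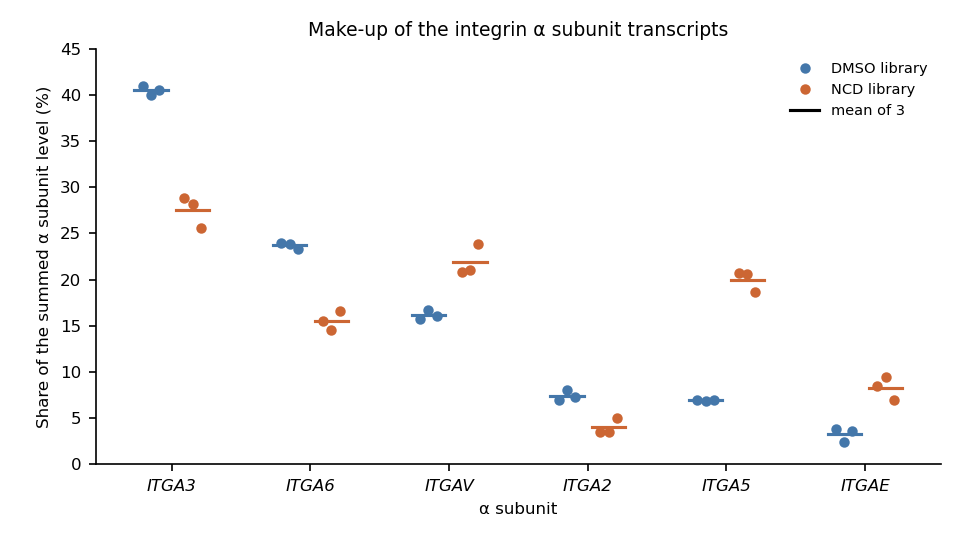
Share (%) of 6 integrin α subunits in the summed α subunit level (counts per kb of exon) in each of the 3 DMSO (blue) and 3 NCD (orange) libraries, with horizontal lines at the mean of 3. Subunits are shown if their mean share was at least 5% in either group, which ITGA2 and ITGAE reached in only 1 group. The groups do not overlap for any of the 6, and the ITGA5 points lie at 6.81 to 6.99% with DMSO and at 18.7 to 20.7% with NCD.

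Of the 6 β subunits tested, 3 were called lower and 1 higher. ITGB1 (ENSG00000150093, chromosome 10, 32900319 to 33005792, minus strand), the common partner of most matrix-binding α subunits, was at 2100, 2180 and 2040 CPM with DMSO and at 834, 801 and 953 CPM with NCD (log2 fold change -1.29 ± 0.08, adjusted p = 1.13e-06). Its processed copy ITGB1P1 had 147 to 448 counts per library. It still made up most of the summed β level per kb, at 94.9% ± 0.215 with DMSO and 90.6% ± 0.754 with NCD (SD, n = 3). ITGB5, which pairs with ITGAV, was at 69.5, 70.6 and 63.2 CPM with DMSO and at 23.0, 24.9 and 23.2 CPM with NCD, a log2 fold change of -1.52 ± 0.08 (adjusted p = 2.85e-07). ITGB8, which with ITGAV binds latent TGF-β, was near the floor, at 1.02, 2.60 and 1.81 CPM with DMSO and at 0.699, 0.569 and 0.979 CPM with NCD. Its call (log2 fold change -1.27 ± 0.38, adjusted p = 0.0154) was lost without DMSO replicate 2 (-0.93, adjusted p = 0.0686) and without NCD replicate 2 (-1.11, adjusted p = 0.054), and its antisense gene ITGB8-AS1 had 11.8% of its counts.

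ITGB2 (ENSG00000160255, chromosome 21, 44885953 to 44931989, minus strand) was the only subunit called higher. It encodes the β subunit of the leukocyte integrins, which bind ICAM proteins. Its level was 4.82, 5.66 and 5.10 CPM with DMSO and 26.1, 28.6 and 25.5 CPM with NCD. Each NCD library lay far above each DMSO library, with a 5.14-fold higher fitted level (log2 fold change 2.36 ± 0.11, adjusted p = 1.43e-07). The opposite-strand gene ITGB2-AS1 had 9.04% of its counts. None of the 8 further integrin subunits looked at (ITGA8, ITGA9, ITGA2B, ITGAD, ITGAL, ITGAM, ITGAX and ITGB7) passed the filter on low counts. Among them are the leukocyte α partners of ITGB2, which were untested and nearly undetected. ITGAM had 0 counts in every library, and ITGAD, ITGAL and ITGAX had at most 1, 2 and 4 counts in any library. ITGB3 and ITGB4 were not called, with log2 fold changes of -0.52 ± 0.18 (adjusted p = 0.0286) and 0.11 ± 0.09 (adjusted p = 0.261), and GALK1 on the opposite strand had 43.7% of the counts of ITGB4.

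Of the talins and kindlins, which bind the β tail and switch integrins on, only TLN2 passed the threshold. TLN2 was at 22.5, 26.2 and 20.9 CPM with DMSO and at 3.06, 2.38 and 2.61 CPM with NCD, 8.60-fold higher with DMSO (log2 fold change -3.10 ± 0.14, adjusted p = 1.52e-07). TLN1, the talin present in most cells, was at 286, 320 and 269 CPM with DMSO and at 263, 256 and 248 CPM with NCD. The TLN1 groups were close but separate, with a log2 fold change of -0.19 ± 0.07 (adjusted p = 0.0405), and the opposite-strand gene CREB3 had 25.8% of its counts. The kindlins FERMT1 and FERMT2 had log2 fold changes of -0.87 ± 0.10 and -0.51 ± 0.06, below the fold threshold although their adjusted p-values were 6.7e-05 and 9.23e-05.

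The scaffold of integrin-linked kinase, PINCH and parvin joins the β tail to actin. PARVA, the α-parvin gene, was at 166, 178 and 164 CPM with DMSO and at 58.6, 56.3 and 57.3 CPM with NCD (log2 fold change -1.56 ± 0.06, adjusted p = 6.28e-08). LIMS1, which encodes PINCH, was at 42.4, 45.2 and 38.4 CPM with DMSO and at 16.2, 15.4 and 18 CPM with NCD (log2 fold change -1.34 ± 0.09, adjusted p = 2.2e-06), and its near copies LIMS3 and LIMS4 had at most 9 counts. ILK, the pseudokinase at the centre, was at 271, 256 and 256 CPM with DMSO and at 210, 212 and 201 CPM with NCD. Its groups were separate and its log2 fold change was -0.33 ± 0.06 (adjusted p = 0.000619), so that both partners fell by more than the fold threshold and ILK itself did not. The opposite-strand gene TAF10 had 13.5% of the counts of ILK.

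The kinases moved unequally. PTK2 (ENSG00000169398, chromosome 8, 140657900 to 141002216, minus strand) encodes focal adhesion kinase, the tyrosine kinase that is activated when integrins cluster. It was measured at 119, 136 and 120 CPM with DMSO and at 7.12, 5.95 and 7.88 CPM with NCD. This was the largest change in either direction among the 39 tested genes, 17.8-fold higher with DMSO (log2 fold change -4.16 ± 0.11, adjusted p = 1.58e-08), and it ranged from -4.26 to -4.06 with any of the 6 libraries left out. Its paralogue PTK2B, which encodes PYK2, was at 5.12, 5.66 and 4.88 CPM with DMSO and at 2.93, 2.28 and 2.10 CPM with NCD (log2 fold change -1.09 ± 0.18, adjusted p = 0.000482), but when libraries were scaled by their totals its log2 fold change was -0.90 and it was not called. SRC, which binds and phosphorylates activated focal adhesion kinase, lay between 17.1 and 18.5 CPM with DMSO and between 27.4 and 30.5 CPM with NCD. All 3 NCD libraries were above the DMSO libraries, and the log2 fold change was 0.69 ± 0.08 (adjusted p = 6.22e-05), below the fold threshold.

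Of the 6 adaptors, PXN fell, NEDD9 rose and 4 were not called. PXN encodes paxillin, a docking protein for focal adhesion kinase and vinculin, and was at 188, 205 and 191 CPM with DMSO and at 80.0, 72.2 and 73.5 CPM with NCD (log2 fold change -1.37 ± 0.07, adjusted p = 2.17e-07). The opposite-strand gene PXN-AS1 had 12% of its counts. NEDD9 (ENSG00000111859, chromosome 6, 11183298 to 11382348, minus strand), a docking protein of the Cas family, had 3, 13 and 4 counts with DMSO and 75, 55 and 83 counts with NCD. In CPM this was 0.181, 0.736 and 0.219 against 3.28, 2.85 and 3.87, so that the DMSO level was near the floor while the NCD libraries were separate from it. Its log2 fold change was 3.11 ± 0.40 (adjusted p = 0.000115), and it was 4.0 without DMSO replicate 2. NEDD9 passed the filter on low counts only through the NCD libraries, so a gene at its DMSO level was tested only if higher with NCD. BCAR1, the founding Cas protein gene, was at 103 to 112 CPM with DMSO and 90.0 to 98 CPM with NCD (log2 fold change -0.19 ± 0.06, adjusted p = 0.0216).

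CRK and CRKL, adaptors that couple phosphorylated Cas proteins and paxillin to small GTPase exchange factors, had positive log2 fold changes below the fold threshold. CRK was at 141, 150 and 137 CPM with DMSO and at 176, 170 and 178 CPM with NCD, a separation of all libraries but a log2 fold change of 0.29 ± 0.06 (adjusted p = 0.00183). For CRKL the log2 fold change was 0.20 ± 0.06 (adjusted p = 0.0144), and for TGFB1I1, the paxillin relative also called HIC-5, it was -0.05 ± 0.12 (adjusted p = 0.737) with overlapping groups.

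The proteins that tie adhesions to actin split into 4 that fell and 4 that were not called. VCL (ENSG00000035403, chromosome 10, 73995193 to 74121363, plus strand) encodes vinculin, which binds talin under tension, and was at 340, 369 and 334 CPM with DMSO and at 83.0, 75.4 and 80.8 CPM with NCD. Its log2 fold change was -2.13 ± 0.07 (adjusted p = 2.73e-08). AP3M1, on the opposite strand, had 48.0% of the counts of VCL, and whether reads were counted by strand is not given in the sources used here. The α-actinin genes, whose products cross-link actin filaments, also fell. ACTN1 was at 634, 667 and 615 CPM with DMSO and at 191, 184 and 185 CPM with NCD (log2 fold change -1.77 ± 0.06, adjusted p = 3.34e-08). ACTN4 was at 605, 622 and 568 CPM with DMSO and at 247, 241 and 224 CPM with NCD (log2 fold change -1.33 ± 0.06, adjusted p = 2.35e-07). TNS3, a tensin that binds β tails at mature adhesions, was at 57.9, 64.6 and 54.5 CPM with DMSO and at 9.39, 8.49 and 9.46 CPM with NCD. Every NCD library of TNS3 was well below the DMSO libraries (log2 fold change -2.69 ± 0.10, adjusted p = 4.4e-08).

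FLNA, ZYX, VASP and TNS1 were not called. FLNA encodes filamin A, which crosses actin filaments and binds β tails, and was at 773, 860 and 768 CPM with DMSO and at 757, 754 and 756 CPM with NCD. ZYX, the gene of the tension-responsive protein zyxin, was at 133, 137 and 125 CPM with DMSO and at 140, 136 and 125 CPM with NCD. The ZYX groups overlapped over nearly their whole range and the FLNA groups were separated by a narrow gap, with log2 fold changes of 0.02 ± 0.07 (95% interval -0.11 to 0.15, adjusted p = 0.787) and -0.08 ± 0.06 (95% interval -0.21 to 0.04, adjusted p = 0.278). VASP, which promotes actin polymerisation at adhesions with zyxin, was at 107, 96.4 and 107 CPM with DMSO and at 88.4, 91.7 and 79.9 CPM with NCD (log2 fold change -0.25 ± 0.07, adjusted p = 0.0128). TNS1 had a log2 fold change of -0.27 ± 0.11 (adjusted p = 0.0575).

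Promoter sequences of RefSeq (GRCh38.p14) were available for 33 of the 44 genes, as 61 windows of 250 bases before to 50 bases after a transcription start. They were searched on both strands for 3 motifs known from cytoskeletal and adhesion genes, namely the CArG box of serum response factor, GGAATG (the core bound by TEAD factors) and TGANTCA (the core bound by AP-1). The CArG box lay in 4 of the 61 windows (6.56%, against 1.29% of 35116 windows of all genes), at ACTN1, FLNA, ITGB6 and TGFB1I1. Of these genes ACTN1 fell, FLNA and TGFB1I1 were not called and ITGB6 was not tested. GGAATG lay in 8 windows (13.1%, against 14% of all), of ACTN1, ITGA5, ITGA10, ITGB1, PXN, TNS1 and VCL, and TGANTCA in 4 (6.56%, against 7.71%), of ACTN4, BCAR1, ITGA5 and LIMS1. The 250 bases before the start are shown for 4 genes chosen after their values were seen, ACTN1 and FLNA because they hold the same box and differed in their change, and VCL and ITGB1 because they hold the same core and both fell. Capitals mark only the motif named beside each gene, the sequences run 5′ to 3′ on the strand of the gene, and a match is a description of the letters only.
ACTN1, chr14:68977567-68977816, minus strand, CArG box from position -171: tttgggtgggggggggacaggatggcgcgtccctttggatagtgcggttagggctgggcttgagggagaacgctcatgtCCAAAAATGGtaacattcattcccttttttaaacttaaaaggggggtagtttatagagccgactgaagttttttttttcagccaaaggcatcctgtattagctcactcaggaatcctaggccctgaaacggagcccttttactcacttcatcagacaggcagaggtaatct
FLNA, chrX:154374635-154374884, minus strand, CArG box from position -94: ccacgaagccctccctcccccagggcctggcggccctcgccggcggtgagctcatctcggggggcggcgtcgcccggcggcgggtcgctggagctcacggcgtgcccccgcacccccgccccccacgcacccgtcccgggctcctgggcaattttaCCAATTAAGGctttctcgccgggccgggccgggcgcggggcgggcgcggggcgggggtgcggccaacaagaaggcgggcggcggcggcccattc
VCL, chr10:73997866-73998115, plus strand, GGAATG from position -171: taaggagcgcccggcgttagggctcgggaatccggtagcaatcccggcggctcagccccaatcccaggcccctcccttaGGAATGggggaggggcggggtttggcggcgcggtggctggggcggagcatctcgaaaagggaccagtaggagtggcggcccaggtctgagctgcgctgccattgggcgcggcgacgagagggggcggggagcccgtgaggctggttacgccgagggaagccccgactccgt
ITGB1, chr10:32958231-32958480, minus strand, GGAATG from position -182: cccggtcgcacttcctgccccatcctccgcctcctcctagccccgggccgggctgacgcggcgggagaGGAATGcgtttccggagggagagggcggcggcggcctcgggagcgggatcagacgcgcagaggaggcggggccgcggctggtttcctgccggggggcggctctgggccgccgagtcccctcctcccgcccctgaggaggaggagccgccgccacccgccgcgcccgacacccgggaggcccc

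The windows of ACTN1 and FLNA thus shared the CArG box while their log2 fold changes were -1.77 and -0.08, and those of VCL and ITGB1 shared GGAATG with log2 fold changes of -2.13 and -1.29. GGAATG also stood before ITGA5 and TNS1, which were not called, and before ACTN1, ITGA10 and PXN, which were called lower. At ACTN1 it lies in the window shown, from position -154 and in lower case, whereas the FLNA window holds none.

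**Figure D3:**
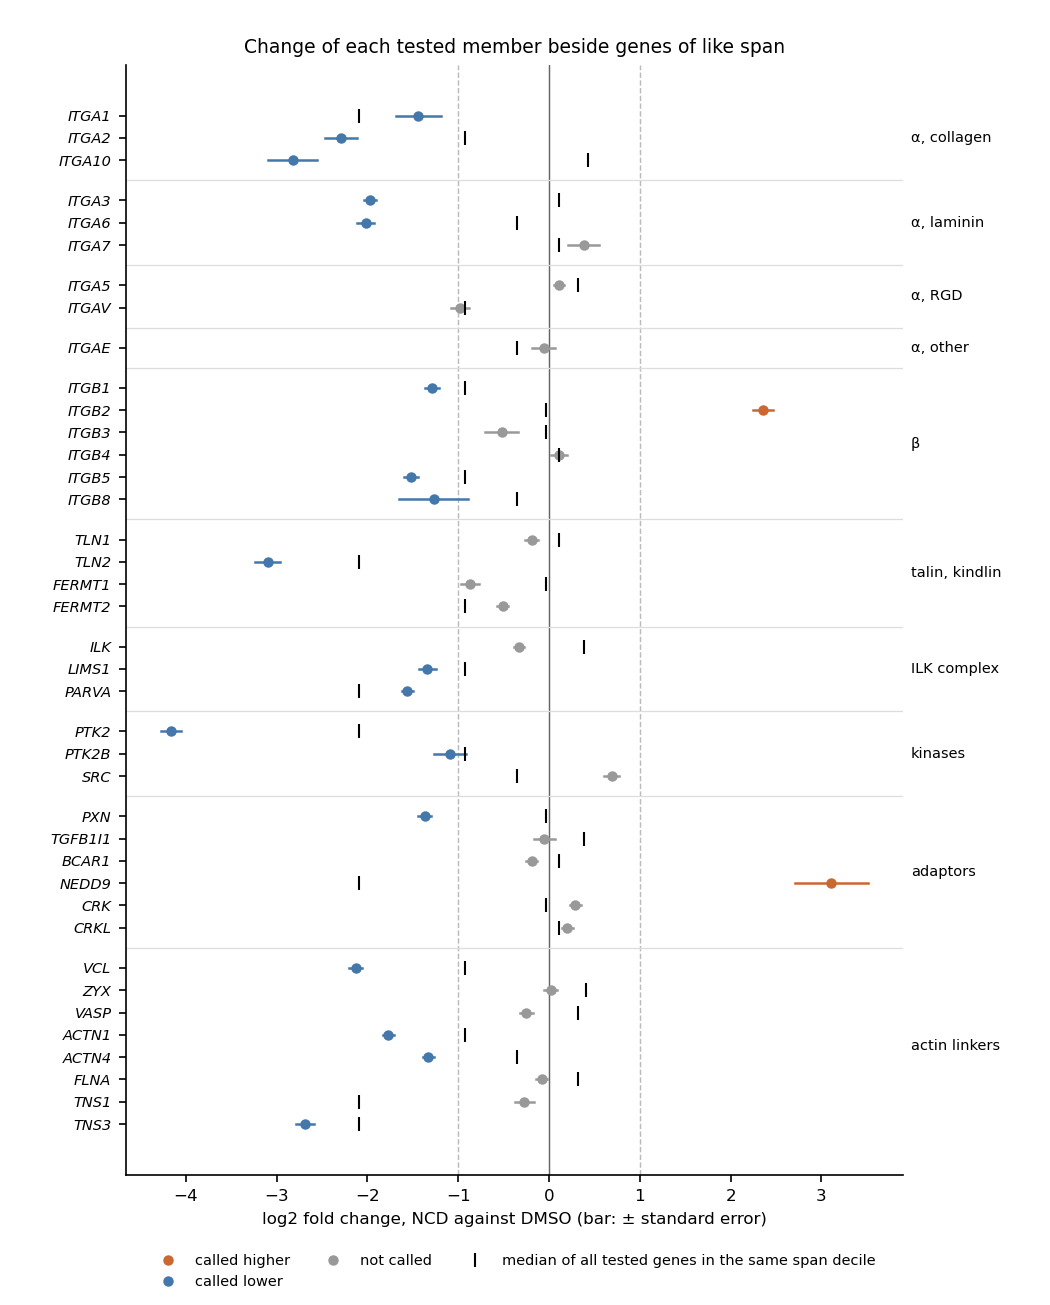
Log2 fold change (NCD against DMSO) of the 39 tested genes, with bars for ± 1 standard error, coloured by call; black ticks give the median of all tested genes in the same decile of gene span and dashed lines the fold threshold. PTK2 at -4.16 and NEDD9 at 3.11 are the extremes, and SRC, TNS1, ITGB2 and NEDD9 lie more than 1 above the median of their span decile.

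Paralogues were compared within each library as the log2 ratio of their counts, for 7 of 8 pairs with enough counts (PARVB was nearly undetected). The ratio of TLN1 to TLN2 was 3.67, 3.61 and 3.68 with DMSO and 6.42, 6.73 and 6.55 with NCD, a shift of 2.92 towards TLN1. For PTK2 to PTK2B it was 4.53, 4.58 and 4.61 with DMSO and 1.28, 1.38 and 1.90 with NCD, a shift of -3.06. The balance therefore moved towards the ubiquitous talin and towards PYK2, and the groups were separate in both pairs. TLN1 and PTK2B did not rise themselves (log2 fold changes -0.19 and -1.09), and PTK2 remained the more counted of its pair in every NCD library. For TNS1 to TNS3 the mean ratio was -2.22 ± 0.02 (SD, n = 3) with DMSO and 0.20 ± 0.08 with NCD, so that TNS3 had more counts with DMSO and TNS1 slightly more with NCD. For BCAR1 to NEDD9 the mean ratio was 8.31 ± 1.00 with DMSO and 4.83 ± 0.28 with NCD, with NEDD9 rising while remaining the less counted of the pair. Smaller shifts were seen for ACTN1 to ACTN4 (-0.44), FERMT2 to FERMT1 (0.35) and CRKL to CRK (-0.09). A two-sided exact permutation test gave p = 0.1 for 6 of the 7 pairs, the smallest value possible (adjusted p = 0.117), and p = 0.2 for CRKL to CRK.

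**Figure D4:**
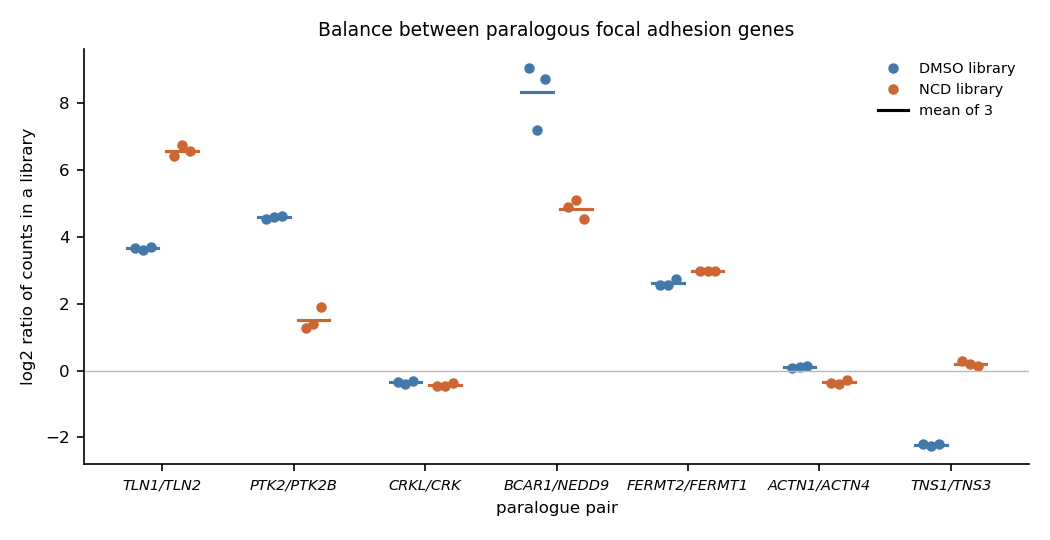
Log2 ratio of the counts of 7 pairs of paralogous genes in each of the 3 DMSO (blue) and 3 NCD (orange) libraries, with horizontal lines at the mean of 3. TLN1/TLN2 and TNS1/TNS3 move up by 2.92 and 2.42, and PTK2/PTK2B and BCAR1/NEDD9 shift by -3.06 and -3.48.

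Gene span moved with the change. Across the 39 tested genes, Spearman's correlation between span (in GENCODE release 29) and log2 fold change was -0.49, as a description over genes that share the same 6 libraries, and over all 14692 tested genes with a span it was -0.50. It was -0.60 over the 24 adaptors, kinases and linkers and -0.27 over the 15 integrin subunits. When all tested genes were cut into 10 equal groups (deciles) by span, the longest genes (153.1 to 2172.9 kb) had a median log2 fold change of -2.09 and 79.2% were called lower, while genes of 13.2 to 20.1 kb had a median of 0.43. Of the adhesion genes, 21 lay in the 3 longest groups, with 15 called lower and a median of -1.34. In these groups, from shorter to longer, 15.6%, 46.0% and 79.2% of all genes were called lower. Of the adhesion genes in the same groups, 3 of 5, 7 of 9 and 5 of 7 were called lower. Another 7 lay in the 5 shorter groups, with 1 called lower and a median of -0.08. In each of those groups 2.93 to 9.25% of all genes were called lower. The other 11 held 2 called lower and 1 called higher, with a median of -0.19. Of all genes in the groups of these 11, from shorter to longer, 5.04% and 7.56% were called lower. Called higher there were 12% and 8.85% of all genes. Against the median of their own span group, 27 adhesion genes were lower, 11 were higher and ITGB4 lay at the median, with a median difference of -0.41. The part of gene span in these changes was not tested.

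Several adhesion genes lay far from genes of like span. ITGA10 (19.0 kb) was the lowest relative to its group, with a difference of -3.26 from the median on the log2 scale, and 0.136% of that group lay below it. ITGA3 (34.5 kb) lay at -1.97 where the group median was 0.11, and 0.953% of the group was lower. ITGA6, PXN, ITGA2 and VCL also lay more than 1 below their groups, as did PTK2 (344.3 kb), with 10.3% of its group lower. TLN2 (454.1 kb) also lay more than 1 below, but 24.1% of its group was lower still, so it was not far out among them. In the other direction, NEDD9, which passed the filter on low counts only through its NCD libraries, spans 199.1 kb. It lay 5.20 above its group median, with 99.9% of the group below it. TNS1 (234.4 kb) lay at -0.27 in the same group, with 90.2% below it, while TNS3 (307.4 kb), also in that group, fell by 2.69. ITGB2 (46.0 kb) exceeded 98.5% of its group and SRC (61.4 kb) 89.0%. PARVA (158.2 kb) and ITGA1 (171.3 kb) were called lower but lay above the median of their group. ILK (7.2 kb), which was not called, lay 0.71 below its group median, with 14.9% of that group lower. LIMS1 (152.9 kb), which was called lower, lay 0.41 below its group median.

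**Figure D5:**
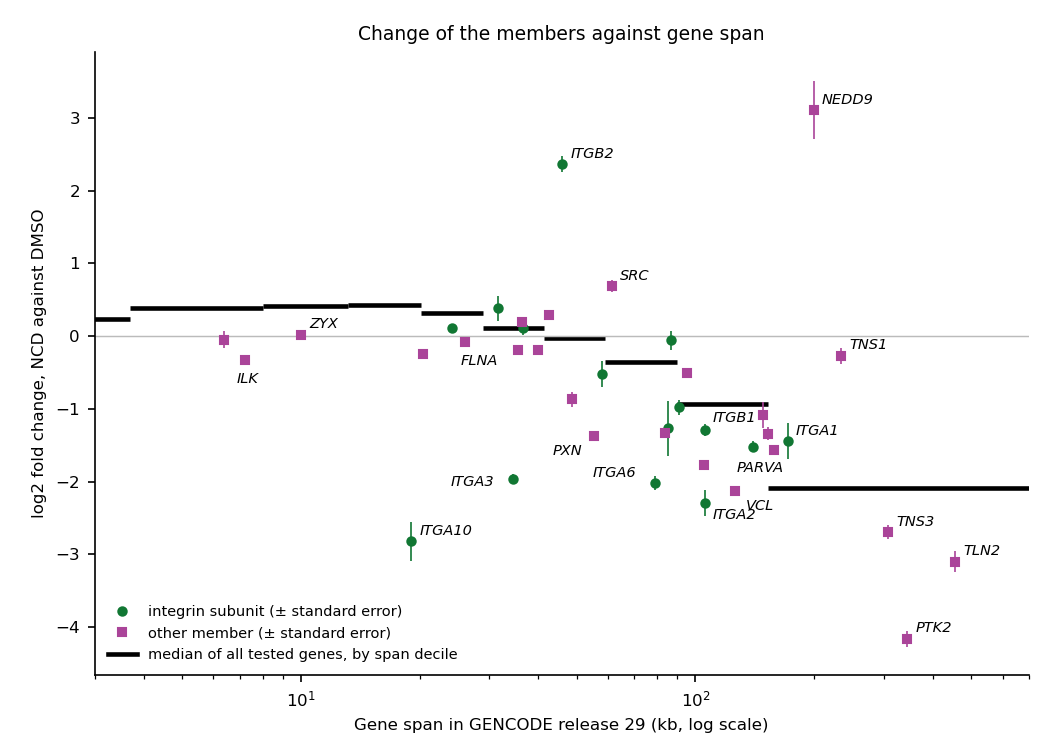
Log2 fold change (NCD against DMSO, ± standard error) of the 39 tested genes against gene span in kb (log scale), with integrin subunits as green circles and other adhesion genes as purple squares; black bars give the median of all tested genes in each decile of span, from 0.24 for the shortest to -2.09 for the longest. ITGA10 and ITGA3 lie well below the bars of short genes, and NEDD9 and TNS1 above the bar of the longest genes.

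The 5 genes that did not pass the filter were ITGA4, with 0 counts in every library, and ITGA11, ITGB6, PARVB and TNS4, with at most 4 counts in any library. At this depth a difference in them was not detectable, and none was called when the filter was left out (adjusted p from 0.0786 for ITGB6 to 0.983 for PARVB).

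The wider adhesion pathway was described by lists of genes outside the 44. Of 50 further adhesion adaptors, 47 were tested, with a median log2 fold change of -0.67. Of those tested, 17 (36.2%) were called lower and 2 (4.26%) higher (AJUBA and GIT1). Over all tested genes, 17.5% were called lower and 13.5% higher. LPP, a zyxin relative, fell by 6.44 on the log2 scale, from 95.3, 127 and 113 CPM to 1.53, 1.03 and 1.26 CPM (adjusted p = 1.49e-08). ASAP1, an ARF GTPase-activating protein that binds focal adhesion kinase, fell by 4.46 (adjusted p = 1.16e-08), and RSU1, a partner of PINCH, fell by 3.13 (adjusted p = 1.74e-08). All 3 belong to the longest decile of genes, whose median was -2.09. Of that decile, 0.68% lay below LPP, 8.03% below ASAP1 and 23.7% below RSU1.

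Of 38 integrin ligand genes, 32 were tested, 14 (43.8%) were called lower and 4 (12.5%) higher, with a median of -0.65, where 17.5% and 13.5% of all tested genes were called in these directions. The basement membrane collagen genes COL4A1 and COL4A2, ligands of the collagen-binding integrins described above, had log2 fold changes of -2.34 and -2.73 (adjusted p = 4.53e-08 and 1.74e-08), where the longest decile of genes, to which both belong, had a median of -2.09, with 42.8% of it below COL4A1 and 32.6% below COL4A2. CCN2, a matricellular integrin ligand of only 3.2 kb, fell by 1.67 (adjusted p = 4.15e-08), where genes of like span had a median of 0.24. The 4 called higher were ICAM1, a ligand of the leukocyte integrins that ITGB2 belongs to, with a log2 fold change of 1.66 (adjusted p = 9.36e-08), COL1A1 (2.24), MFGE8 (1.37) and COL6A1 (1.24).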

How the data were processed

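RNA-seq libraries of MDA-MB-231 cells (3 DMSO, 3 NCD) were grouped by their titles and treatment labels. The authors aligned reads with HISAT2 and deposited expected counts per Ensembl gene from RSEM, 1 library at a time and without normalization, with GRCh38 (hg38) named in the submitters' processing notes. The annotation release and the strandedness of counting are not given in the sources used here. In each library 25 lines without a gene or count were skipped. Symbols were matched for 62720 of 63241 identifiers, and coordinates, span and exon length came from GENCODE release 29 on GRCh38 (58228 identifiers).

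Expected counts were rounded and tested with edgeR 4.0.16 in R 4.3.3 (filterByExpr, TMM factors from 0.911 to 1.092, glmQLFit, glmQLFTest) over all genes, with Benjamini-Hochberg adjustment. The fold threshold follows the study's methods, which used DESeq2. Standard errors were derived from the fold change and its F statistic. The edgeR test was run on simulated counts with 200 genes changed by a log2 fold of 2. Of these 196 were tested and 196 recovered, with 2 false calls. Because 31.0% of genes were called in the real data, the simulation does not check scaling between libraries under so wide a change. Shares and paralogue ratios were compared by exact permutation tests in scipy 1.17.1, with 0.5 added to counts in ratios, while tables and plots used numpy 2.4.6, matplotlib 3.10.9 and pandas 2.3.3. Alternatives were DESeq2 1.42.0, limma-voom (limma 3.58.1), library totals, DESeq2 size factors, other count filters, a call without the fold threshold, a larger prior count (2), a replicate block, and fits without each library. Totals of 18223594 to 21629653 counts limit precision for genes of a few counts, and the floors cover counting error only.

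Every adhesion gene is named, with per-library values for those called at a mean of at least 1 CPM in either group and for the 6 uncalled genes with the highest counts per kb. Values per library for ITGAV, ITGA5 and the NEDD9 counts, and the ranges for ITGA7, SRC and BCAR1, were added after the values were seen. Of each wider list, the 3 called genes with the smallest p are given with values, except for 1 list and 1 marker that are not reported here, and the genes called higher were added after their values were seen. Members and lists were chosen with earlier results of these data known.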

Additional observations from a re-analysis of the deposited data

How the results depend on the processing

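Of the 39 tested adhesion genes, 30 kept their direction and their side of the call threshold in each of the 14 alternative fits in which they were tested, among them 18 of the 20 called. These fits do not include the call without the fold threshold, and NEDD9 was not tested in 1 of them. The number called higher (2) was 1 when at least 10 counts were required in every library (the fit without NEDD9) and 5 without the fold threshold, and the number called lower (18) was 26 without it. Of the 115 genes of the wider lists that were tested, counting the list not reported here, 7 were called higher and 44 lower, and without the fold threshold 25 and 75. Leaving out each library gave 2 to 2 adhesion genes higher and 17 to 19 lower, and 7 to 8 and 43 to 46 of the wider lists. Scaling by library totals raised the median log2 fold change of all genes by 0.20, so that 2793 genes were called higher and 2181 lower (56.2% higher, against 43.6%), and left 2 adhesion genes higher and 17 lower. Under it the log2 fold changes of ITGAE (0.13), TLN1 (0.0057), TGFB1I1 (0.15), BCAR1 (0.0042) and FLNA (0.11) turned positive without passing the threshold, and PTK2B (-0.90) was not called. ZYX turned negative without DMSO replicate 1 (-0.00047), DMSO replicate 3 (-0.045) or NCD replicate 1 (-0.038), and without NCD replicate 3 ITGAE (0.0014) and TGFB1I1 (0.056) turned positive. With libraries left out in turn, ITGAE ranged from -0.21 to 0.0014, TGFB1I1 from -0.12 to 0.056 and ZYX from -0.045 to 0.054. The calls of ITGB8 and ITGAV changed when single libraries were left out, as given above. The cause of these changes was not tested. Libraries that share a replicate number deviated together for replicate 1 (r = 0.368) but not for replicates 2 and 3 (-0.332 and 0.015), so the numbers were not taken as pairs, and with the replicate block 2 adhesion genes were called higher and 18 lower, and 7 and 43 of the wider lists. NCD replicates 1, 2 and 3 correlated best with DMSO replicates 1, 1 and 2, so that not every library correlated best with its own number. Depth limits ITGB8, NEDD9 and the 5 untested genes, which had few counts in at least 1 group.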
